A study of Homo sapiens with 10 samples.

Results

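The genes of innate nucleic acid sensing and interferon signalling were examined in methylated DNA immunoprecipitation (MeDIP) peak lists of HEK293T cells, a human embryonic kidney line. The set holds 42 of the 19974 protein-coding genes on chromosomes 1 to 22 and X, and a peak was counted for a gene where it overlapped the gene body or the 2 kb on either side by at least 1 bp. By this rule 272 of 284960 peaks over 5 lists belonged to the set, 58 in KD, 71 in EV, 61 in K rep KO, 55 in K non-rep KO, against 27 in WT. KD is the knockdown that the series' design text names KCNQ1OT1_K KD, and the conditions K rep KO and, separately, K non-rep KO are knockouts whose target the labels do not spell out further. EV and WT carry no named perturbation, and EV, K, rep and non-rep are not spelled out in the labels. All 5 conditions are HEK293T cells grown alike, and no label says whether each knockout is 1 clone. With 1 immunoprecipitated and 1 input sample per condition there are no replicates, and no test across samples was possible.

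Cells detect misplaced nucleic acid with sensor proteins. CGAS reads DNA in the cytosol, RIGI and IFIH1 read viral RNA, and their signals pass through the adaptors STING1 and MAVS to the kinases TBK1 and IKBKE and on to IRF transcription factors that switch on interferon. Interferon then acts through its receptor, JAK1, TYK2, STAT2 and IRF9 to switch on antiviral effector genes, whose promoters often carry an interferon-stimulated response element. Cytosine methylation at CpG sites is commonly linked with silence when it lies on a promoter, and is common in the bodies of active genes. In MeDIP an antibody against 5-methylcytosine captures sonicated fragments, so a peak marks a stretch where methylated CpG sites are dense, not the methylation of a single site. The lists hold no RNA, so neither the expression of these genes nor the perturbation of KCNQ1OT1 could be checked in them.

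The promoters were looked at first, as the window from 250 bases before to 50 bases after the gene start in a RefSeq table of GRCh38.p14, which had an entry for 30 of the 42 genes. A peak met 2 of these 30 windows in EV, those of OAS3 and ISG15, and 1 in K rep KO, that of IRF5. None of the 30 was met in KD, K non-rep KO or WT. At IRF5 a KD peak (128937280 to 128937668) overlapped the K rep KO peak and ended just before the window began at 128937677. The difference between KD and K rep KO there thus rests on a few bases. The 12 genes without an entry, CGAS, ZBP1, DHX58, STING1, IRF3, IRF7, IFNAR2, OAS2, OASL, MX2, IFIT2 and USP18, had no window to meet. Among them, a peak crossed an end of the gene body at CGAS in EV and K rep KO. Others did so at IRF7 in K non-rep KO (615616 to 616002) and at USP18 in WT (18149764 to 18150875). At the other end of USP18 a peak of K rep KO did so (18177346 to 18177933). Strand was not given for these genes, so whether such peaks lay on promoters was not determined. Over the 15812 protein-coding genes with such a window, 2.73% were met in KD, 4.44% in EV, 2.64% in K rep KO, 2.15% in K non-rep KO, against 0.74% in WT, and 0 to 2 of 30 is too few to set apart from these shares. The EV peak at OAS3, an interferon-induced maker of the 2-5A messenger, spanned all 300 bases of its window, with a fold enrichment of 3.59. That at ISG15, a ubiquitin-like modifier, covered 33 bases on the transcribed side, and that of K rep KO at IRF5 covered 26 bases at the far upstream edge. The tabled start of IRF5 lies inside the annotated gene body, so that peak counts as in the body too. The 250 bases before the start of these genes are given 5′ to 3′ with CpG sites in capitals. That of IFIT1, an effector with no peak on its promoter, is set beside them because its promoter has few CpG sites.
OAS3, chr12:112938224-112938473, plus strand: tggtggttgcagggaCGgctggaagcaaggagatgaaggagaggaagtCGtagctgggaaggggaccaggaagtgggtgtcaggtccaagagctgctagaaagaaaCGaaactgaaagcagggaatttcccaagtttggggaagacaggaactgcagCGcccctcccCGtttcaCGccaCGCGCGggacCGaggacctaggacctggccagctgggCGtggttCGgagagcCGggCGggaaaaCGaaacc
ISG15, chr1:1013247-1013496, plus strand: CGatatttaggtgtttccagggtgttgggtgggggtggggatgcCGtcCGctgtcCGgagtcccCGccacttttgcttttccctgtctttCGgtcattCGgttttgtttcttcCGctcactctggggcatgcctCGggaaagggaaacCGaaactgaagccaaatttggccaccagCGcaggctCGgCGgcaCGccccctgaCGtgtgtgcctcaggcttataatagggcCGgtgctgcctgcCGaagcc
IRF5, chr7:128937677-128937926, plus strand: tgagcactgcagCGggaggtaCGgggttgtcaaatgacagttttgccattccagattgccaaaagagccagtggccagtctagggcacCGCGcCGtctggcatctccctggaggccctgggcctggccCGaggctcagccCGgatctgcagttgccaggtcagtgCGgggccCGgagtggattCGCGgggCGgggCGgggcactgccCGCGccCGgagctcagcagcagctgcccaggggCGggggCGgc
IFIT1, chr10:89392373-89392622, plus strand: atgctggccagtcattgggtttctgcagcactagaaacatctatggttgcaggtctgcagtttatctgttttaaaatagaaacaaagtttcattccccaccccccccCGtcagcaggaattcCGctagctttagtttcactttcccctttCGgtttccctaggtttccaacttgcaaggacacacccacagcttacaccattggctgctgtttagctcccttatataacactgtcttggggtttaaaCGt

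These stretches held 15 CpG sites at OAS3, 17 at ISG15, 18 at IRF5 and 4 at IFIT1. The core of the interferon-stimulated response element was searched on both strands as GAAANNGAAA, overlapping matches counted. OAS3, ISG15 and IFIT1 had 2 matches each and IRF5 had 0. Counted from the first printed base, the matches lay at 108 to 117 and 239 to 248 in OAS3, and at 138 to 147 and 144 to 153 in ISG15. In IFIT1 they lay at 135 to 144 and 148 to 157, where the printed strand shows the reverse complement. In each of these 3 genes the second match has 1 CpG site inside it, so the cytosine that methylation acts on is part of the motif there. The motif was present in 12 of the 30 windows of 300 bases (40.0%), against 3.17% of the protein-coding windows. The 30 windows held a median of 14.5 CpG sites, from 1 at IFI16 and OAS1 to 37 at TRIM25, against a median of 22 over all protein-coding windows. Windows with at least 10 CpG sites made up 17 of the 30 (56.7%), against 73.0%. A match or a CpG count describes these letters only, and which CpG sites were methylated cannot be read from peaks.

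Across the series, the lists held 53919 peaks in KD, 87815 in EV, 59098 in K rep KO, 53396 in K non-rep KO, against 30732 in WT. WT stood apart, with the fewest and the widest peaks, a median of 748 bp against 505 to 522 bp in the other lists. At the 42 genes the median width was 573 bp in WT, below the 591 bp of EV. Depth of immunoprecipitation, estimated from the caller's background, was 0.947 of that of EV in KD, 0.90 in K rep KO, 0.751 in K non-rep KO, against 0.887 in WT. The part of depth and of the width of WT peaks in the results was not tested. A peak had to pass the caller's threshold, a −log10 q of about 1.3, so a gene with no peak may still carry methylation below it.

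A peak lay in 23 of the 42 genes in KD, 27 in EV, 20 in K rep KO, 23 in K non-rep KO, against 14 in WT. These are 54.8%, 64.3%, 47.6%, 54.8% and 33.3% of the set. Over all protein-coding genes the shares were 55.5% in KD, 68.3% in EV, 56.6% in K rep KO, 55.2% in K non-rep KO, against 36.7% in WT. Each of these background shares lay within the Wilson 95% interval of the set's share, which covers counting error only. Per length, the set carried 39.2 peaks per Mb of gene region in KD, 47.9 in EV, 41.2 in K rep KO, 37.1 in K non-rep KO, against 18.2 in WT. Over protein-coding genes these were 23.7, 40.7, 25.4, 23 and 10.8 peaks per Mb in the same order, and over 85 other genes of the pathway 31, 50.9, 29.1, 29.8 and 13.8, also above all protein-coding genes in every list. Per gene the order was the other way: the set had 1.38 peaks a gene in KD, 1.69 in EV, 1.45 in K rep KO, 1.31 in K non-rep KO, against 0.643 in WT, and protein-coding genes had 1.57, 2.69, 1.68, 1.52 and 0.71. The mean gene region was 35.4 kb in the set and 68.7 kb over protein-coding genes, while the medians were 30.2 kb and 28.2 kb, and which of the 2 measures is used decides the direction.

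**Figure D1:**
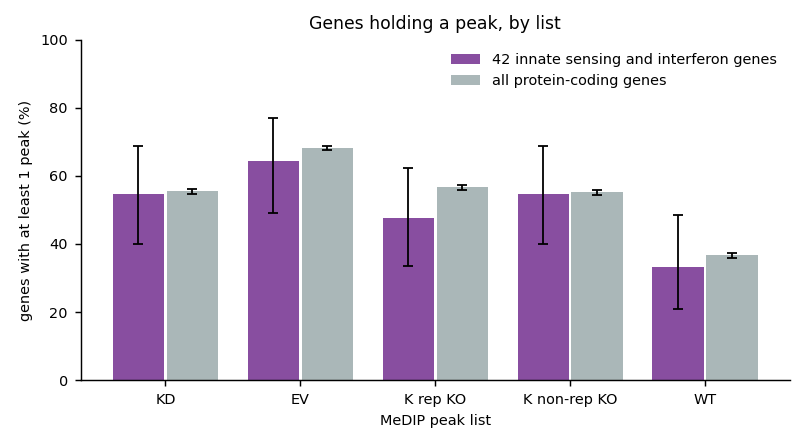
Percent of genes with at least 1 MeDIP peak (y axis) in each of the 5 lists (x axis), for the 42 innate sensing and interferon genes (purple) and all 19974 protein-coding genes (grey), with Wilson 95% intervals of counting error. The bars of the set lie at 33.3% to 64.3%, and each interval holds the share of all protein-coding genes.

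Of the 42 genes 33 had a peak in some list (78.6%, against 78.1% of protein-coding genes) and 26 had at least 3 over the lists together (61.9%, against 60.9%). A peak in every list was found in 9 (21.4%, against 28.4%): CGAS, TLR9, MAVS, JAK1, TYK2, ISG15, BST2, SAMHD1 and USP18. Another 9 held none in any list, 21.4% of the set beside 21.9% of protein-coding genes: the sensors IFI16, AIM2, IFIH1 and TLR3, the factor IRF1, and the effectors OAS1, OAS2, MX2 and IFIT2. IFI16 and AIM2 are neighbours on chromosome 1, and OAS1 and OAS2 lie on either side of OAS3 on chromosome 12. Of the 272 peaks 224 touched the gene body and 48 lay in the flanks, and 29 also overlapped another gene.

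**Figure D2:**
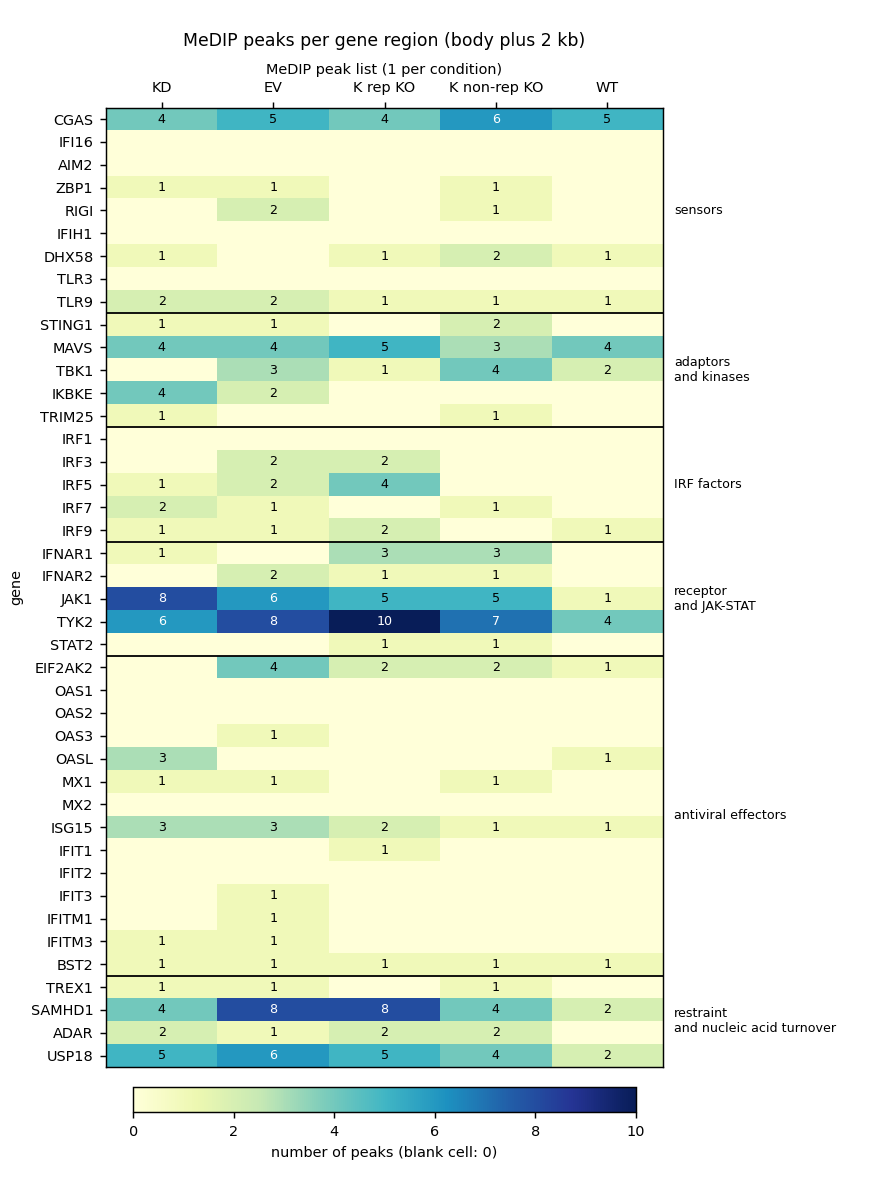
Number of MeDIP peaks in the region of each gene (rows, grouped by role) in each list (columns); colour and printed number give the count, and blank cells are 0. TYK2 has the highest count, 10 in K rep KO, and 9 genes are blank across all 5 lists.

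Among the 9 sensors, CGAS, which makes the messenger that activates STING1, held most of the peaks (chromosome 6, 73423711 to 73452297). It had 4 peaks in KD, 5 in EV, 4 in K rep KO, 6 in K non-rep KO, against 5 in WT. The count was within 4 to 6 in every list, but part of it is weak peaks: with −log10 q of 5 or more CGAS had 1 peak in KD, 5 in EV and 4 in each of the other lists. A region near its high-coordinate end, 73449204 to 73452910, was found in every list. In EV and K rep KO a peak of this region crossed that end, and in K non-rep KO one began 17 bp past it. CGAS had no promoter window, so whether the region meets its promoter was not determined. In this region the highest fold enrichment was 3.6 in KD, 6.74 in EV, 12.2 in K rep KO, 13.6 in K non-rep KO, against 3.84 in WT. The number of fragments piled at its summit, solved from the deposited fold and p, was 11 in KD, 19 in EV, 27 in K rep KO, 28 in K non-rep KO, against 29 in WT. Both knockouts and WT had 27 to 29 fragments, while the caller's background at the summit was 1.3 in K rep KO, 1.13 in K non-rep KO, against 6.81 in WT. Fragment numbers here and below are not scaled for depth, estimated as 0.90 of EV in K rep KO, 0.751 in K non-rep KO, against 0.887 in WT. A further region shared by all lists, 73424198 to 73426165, had folds of 4.6 in KD, 6.94 in EV, 6.25 in K rep KO, 9.90 in K non-rep KO, against 5.35 in WT. TLR9, the endosomal receptor for CpG DNA, had 2 peaks in KD and EV and 1 in each of the other lists, all within 52221225 to 52224101 of chromosome 3. DHX58, a regulator of RIGI and IFIH1, had 1 peak in KD, 0 in EV, 1 in K rep KO, 2 in K non-rep KO, against 1 in WT, one of them also inside KAT2A. RIGI had 2 in EV and 1 in K non-rep KO, and ZBP1, a sensor of Z-form nucleic acid, had 1 each in KD, EV and K non-rep KO, at 3 separate places.

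MAVS, the mitochondrial adaptor of RIGI and IFIH1, led the adaptors and kinases (chromosome 20, 3846834 to 3876118). Its peaks numbered 4 in KD, 4 in EV, 5 in K rep KO, 3 in K non-rep KO, against 4 in WT. Among the EV peaks of the set the one at 3850008 to 3853633 had the highest fold, 15.9, with 47 fragments at its summit. In the joined region, 3850006 to 3853642, the other lists had folds of 5.13 in KD, 7.09 in K rep KO, 5.46 in K non-rep KO, against 5.76 in WT, with 32, 35, 23 and 44 fragments. EV and WT had the most fragments there, over a background of 2.01 in EV and 6.81 in WT. The next region, 3859834 to 3861721, had folds of 7.06 in KD, 8.19 in EV, 8.22 in K rep KO, 11.6 in K non-rep KO, against 10.1 in WT. Its summit fragments ran otherwise, with 28 in KD, 38 in EV, 24 in K rep KO, 24 in K non-rep KO, against 36 in WT. TBK1, the kinase that activates IRF3, had 0 peaks in KD, 3 in EV, 1 in K rep KO, 4 in K non-rep KO, against 2 in WT. IKBKE, its relative, had 4 in KD and 2 in EV and none in the other lists. STING1, the adaptor of CGAS, had 1 peak in KD, 1 in EV and 2 in K non-rep KO, 3 of these 4 in its flank over a pseudogene. TRIM25, a ubiquitin ligase acting on RIGI, had 1 each in KD and K non-rep KO.

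**Figure D3:**
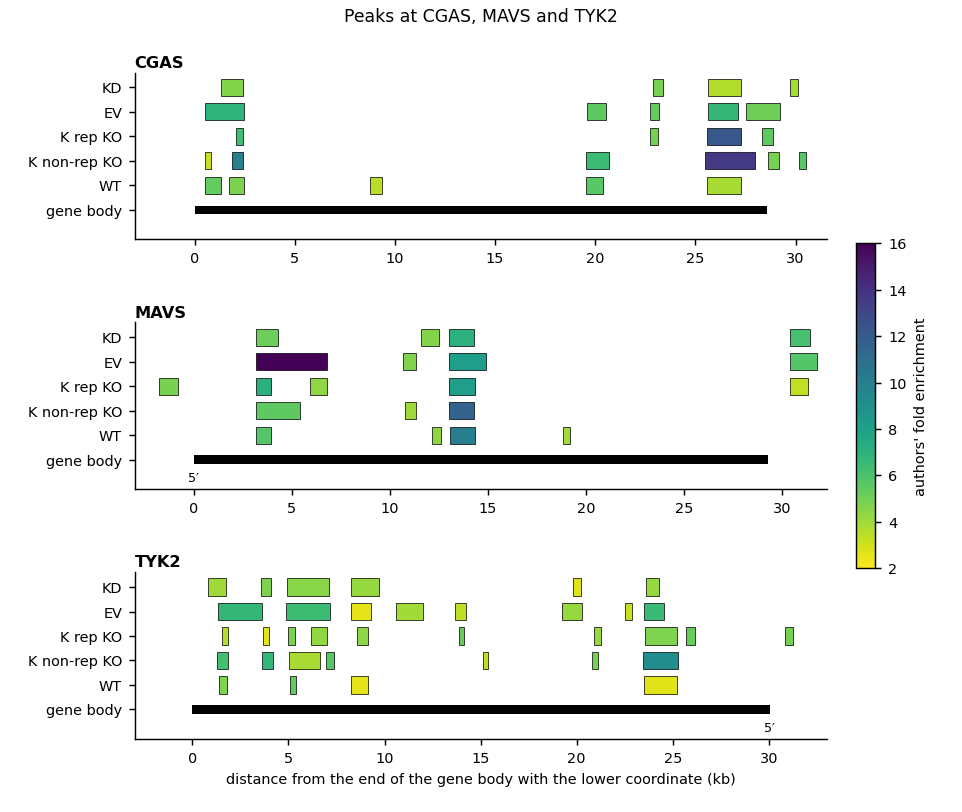
MeDIP peaks along CGAS, MAVS and TYK2 (x axis, distance in kb from the end of the gene body with the lower coordinate; black bar, gene body; 5′ marks the gene start where strand was known), 1 row per list, coloured by the authors' fold enrichment. Blocks of peaks recur in all 5 rows at CGAS and at MAVS and at TYK2; the darkest is the MAVS peak of EV with a fold of 15.9.

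The IRF factors carried few peaks. IRF5 had 1 peak in KD, 2 in EV, 4 in K rep KO, 0 in K non-rep KO, against 0 in WT. All 7 lay in the first part of its body, with folds from 3.23 to 5.06, and 3 of its 4 K rep KO peaks overlapped peaks of KD or EV. IRF3, the factor downstream of TBK1, had 2 in EV and 2 in K rep KO, with folds of 2.72 to 4.18 and 1 of them over SCAF1. IRF7, which amplifies interferon production, had 2 in KD, 1 in EV and 1 in K non-rep KO, and the flank peaks of KD and EV lay over PHRF1. IRF9, the DNA-binding part of the interferon-activated STAT complex, had 1 in KD, 1 in EV, 2 in K rep KO, 0 in K non-rep KO, against 1 in WT. These all lay past the end of its body, between 24167198 and 24168467 of chromosome 14.

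In the receptor and JAK-STAT group, TYK2 held more peaks than any other gene of the set (chromosome 19, 10350533 to 10380572). It had 6 in KD, 8 in EV, 10 in K rep KO, 7 in K non-rep KO, against 4 in WT. Its bases under peaks ran otherwise, with 6224 bp in KD, 9975 in EV, 5571 in K rep KO, 5519 in K non-rep KO, against 3292 in WT. K rep KO thus had the most peaks and EV the most covered sequence. The widest TYK2 peak was 2278 bp in EV and 1671 bp in K rep KO. Regions of TYK2 in every list lay at 10351352 to 10354704, 10355408 to 10357919 and 10374004 to 10375779. JAK1, a far longer gene of 234518 bp, had 8 in KD, 6 in EV, 5 in K rep KO, 5 in K non-rep KO, against 1 in WT. None of its peak regions was found in more than 3 lists, and most were found in 1 only. IFNAR1, a subunit of the interferon receptor, had 1 in KD, 0 in EV, 3 in K rep KO, 3 in K non-rep KO, against 0 in WT. The knockouts shared 1 place at IFNAR1, 33354029 to 33354447 of chromosome 21, with folds of 5.43 in K rep KO, against 4.19 in K non-rep KO. IFNAR2, its partner, had 2 in EV and 1 in each knockout, at a place the knockouts shared. STAT2 had 1 in each knockout, at different places.

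The 14 antiviral effectors held 9 peaks in KD, 13 in EV, 6 in K rep KO, 5 in K non-rep KO, against 4 in WT. EIF2AK2, the kinase PKR that halts translation on double-stranded RNA, had 0 in KD, 4 in EV, 2 in K rep KO, 2 in K non-rep KO, against 1 in WT. One place inside it, 37120272 to 37121242 of chromosome 2, was found in every list but KD. Its fold was 12.3 in EV, 7.4 in K rep KO, 4.6 in K non-rep KO, against 6.11 in WT, with 29, 16, 14 and 17 fragments. ISG15 had 3 in KD, 3 in EV, 2 in K rep KO, 1 in K non-rep KO, against 1 in WT. The place common to all lists lay past its end, at 1015789 to 1016843 of chromosome 1, with folds of 5.13 in KD, 4.91 in EV, 5.22 in K rep KO, 7.51 in K non-rep KO, against 7.24 in WT. BST2, the tether that holds virions to the cell, had 1 peak in every list, all past its end within 17400390 to 17402854 of chromosome 19. OASL, an OAS-like protein without synthetase activity, had 3 in KD and 1 in WT, and the KD peaks in its body reached a fold of 6.93. MX1, a dynamin-like antiviral GTPase, had 1 each in KD, EV and K non-rep KO, which overlapped. The IFITM proteins hinder viral entry at membranes, and IFITM3 had 1 each in KD and EV and IFITM1 1 in EV. OAS3 had 1 in EV. Of the IFIT genes, whose proteins bind viral RNA, IFIT3 had 1 in EV and IFIT1 1 in K rep KO, both also within LIPA. The IFIT and IFITM genes belong to families of similar copies, and reads between copies are uncertain.

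The last group restrains the response. SAMHD1, which depletes nucleotides, had 4 peaks in KD, 8 in EV, 8 in K rep KO, 4 in K non-rep KO, against 2 in WT. USP18, which removes ISG15 and dampens the receptor, had 5 in KD, 6 in EV, 5 in K rep KO, 4 in K non-rep KO, against 2 in WT. USP18 has near-identical partial copies on chromosome 22, so its peaks are uncertain. ADAR, which edits double-stranded RNA, had 2 in KD, 1 in EV, 2 in K rep KO, 2 in K non-rep KO, against 0 in WT. TREX1, an exonuclease that clears cytosolic DNA, had 1 each in KD, EV and K non-rep KO, and all of these also lay over ATRIP or SHISA5.

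The knockdown was compared with EV. Over the set KD had 58 peaks and EV 71, a ratio of 0.817, whereas over all protein-coding genes the ratio was 0.583. The ratio of the set relative to all protein-coding genes was 1.40, with an exact binomial 95% interval of counting error from 0.974 to 2.01. The set thus held fewer peaks in KD than in EV by a smaller factor than genes at large, but the interval included 1. With flanks of 10 kb the relative ratio was 1.37 and its interval, 1.04 to 1.79, lay above 1. A ratio of about this size was not particular to KD. With the main flanks and EV as reference it was 1.37 for each knockout, with intervals that included 1. EV against WT gave 0.695 (0.441 to 1.13), that is, relatively fewer peaks of the set in EV. Whether the value for KD comes from the knockdown or from the EV list was not tested. In the set 8 genes had more peaks in KD and 13 fewer, of 31 with a peak in either list. Over protein-coding genes with a peak in either list, 14.4% had more and 67.0% fewer. With 1 sample a condition a gene was called where (peaks + 1) differed at least 2-fold and both lists together held 3 or more. OASL was called higher in KD and TBK1 and EIF2AK2 lower, of 15 genes that met the minimum, where 1.95% of protein-coding genes were called higher and 31.7% lower. With −log10 q of 5 or more all 3 calls ended, on 2 peaks against 0 for OASL, 0 against 1 for TBK1 and 0 against 2 for EIF2AK2, and CGAS with 1 against 5 and TYK2 with 1 against 3 were called lower instead. The log2 ratio was 2.00 for OASL with 3 peaks against 0, −2.00 for TBK1 with 0 against 3, and −2.32 for EIF2AK2 with 0 against 4. The median log2 ratio was 0.00 over the 15 genes and −0.58 over protein-coding genes. Of the KD peaks of the set 55.2% met an EV peak, and 43.7% of the EV peaks met a KD peak, against 56.6% and 32.6% over protein-coding genes. By covered bases the relative ratio was 1.14.

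**Figure D4:**
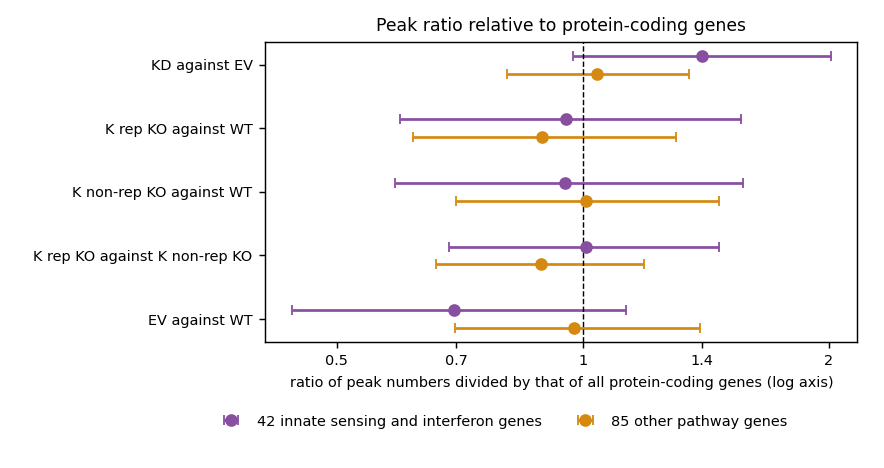
Ratio of peak numbers in the 5 comparisons (rows), divided by that of all protein-coding genes (x axis, log scale; dashed line at 1), for the 42 genes (purple) and 85 other genes of the pathway (orange), with exact binomial 95% intervals of counting error. The set ranges from 0.695 for EV against WT to 1.40 for KD against EV, and every interval includes 1.

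The K rep KO was then set against WT. It had 61 peaks in the set and WT had 27, a ratio of 2.26 beside 2.37 over protein-coding genes. The relative ratio was 0.955 (0.598 to 1.56), an interval that included 1. More peaks in K rep KO were found in 15 genes and fewer in 3, TBK1, CGAS and OASL, beside 73.5% and 10.8% of protein-coding genes with a peak in either list. Of 12 genes that met the minimum, IRF5, IFNAR1, JAK1, TYK2, SAMHD1 and USP18 were called higher and none lower, where 46.0% and 1.40% of protein-coding genes were. IRF5 had a log2 ratio of 2.32 with 4 peaks against 0, but 0 against 0 both with −log10 q of 5 or more and with lists of equal length. SAMHD1 stayed called under both, IFNAR1 and JAK1 only with equal lengths, USP18 only with the stricter q, and TYK2 under neither. With the stricter q IFNAR1 had 2 peaks against 0, below the minimum of 3. JAK1 had 5 against 1 and SAMHD1 8 against 2, a log2 ratio of 1.58 for each. With EV in place of WT, a choice made after the values were seen, the relative ratio was 1.37 (0.960 to 1.96).

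Setting K non-rep KO beside WT uses the same WT list. K non-rep KO had 55 peaks in the set against 27, a ratio of 2.04 beside 2.14 over protein-coding genes, and a relative ratio of 0.95 (0.589 to 1.57). In 19 genes K non-rep KO had more peaks and in 3 fewer, MAVS, OASL and IRF9, beside 70.4% and 12.4% of protein-coding genes. IFNAR1 with 3 against 0 and JAK1 with 5 against 1 were called higher of 10 genes, where 41.4% of protein-coding genes were. No gene of the set was called lower, where 1.72% of protein-coding genes were. With −log10 q of 5 or more, and with lists of equal length, neither call held. IFNAR1 had 2 peaks against 0 under both, below the minimum of 3. JAK1 had 0 against 1 with the stricter q and 1 against 1 with equal lengths. JAK1 had 0 peaks against 1 with folds of 4 or more. With EV in place of WT the relative ratio was 1.37 (0.944 to 1.97).

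Between the knockouts the set had 61 peaks in K rep KO, against 55 in K non-rep KO, a ratio of 1.11 beside 1.10 over protein-coding genes. More peaks in K rep KO were found in 9 genes and fewer in 10, beside 42.9% and 33.5% of protein-coding genes. IRF5 was called higher in K rep KO, 4 against 0, and TBK1 lower, 1 against 4, of 13 genes, where 12.2% and 7.96% of protein-coding genes were. With −log10 q of 5 or more both calls ended, on 0 peaks against 0 for IRF5 and 1 against 2 for TBK1. USP18, with 4 against 0, was called higher in K rep KO instead. With folds of 4 or more TBK1 stayed called and IRF5 did not, and JAK1 with 4 against 0 was added. By role, K rep KO had 6 peaks against 11 in K non-rep KO among sensors, 6 against 10 among adaptors and kinases, 8 against 1 among IRF factors, 20 against 17 in the receptor and JAK-STAT group, 6 against 5 among effectors and 15 against 11 in the restraint group. IRF5 gave 4 of the 8 peaks of the IRF factors. Most of the 8 were weak: with −log10 q of 5 or more K rep KO kept 0 at IRF5 and 1 at IRF9. Its IRF3 peaks had −log10 q of 3.33 and 3.47, and the K non-rep KO peak at IRF7 had 1.99. The 3 genes on chromosome 11, IRF7, IFITM1 and IFITM3, had 0 peaks in K rep KO, against 1 in K non-rep KO. That chromosome as a whole had 1321 peaks in K rep KO, against 2146 in K non-rep KO. The knockouts shared 32.8% of the K rep KO peaks and 36.4% of the K non-rep KO peaks of the set, against 40.2% and 44.2% over protein-coding genes.

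EV and WT, neither of them perturbed by name, were also compared, which shows how far lists without a named perturbation differed. EV had 71 peaks in the set and WT 27, a ratio of 2.63 beside 3.78 over protein-coding genes, and a relative ratio of 0.695 (0.441 to 1.13). In EV 23 genes had more peaks and 2 fewer, DHX58 and OASL, beside 86.6% and 4.14% of protein-coding genes. JAK1, EIF2AK2, ISG15, SAMHD1 and USP18 were called higher of 10 genes and none lower, where 68.7% and 0.397% were. With lists of equal length JAK1 alone stayed called, and SAMHD1 turned to 0 peaks against 2, a log2 ratio of −1.58. CGAS with 5 and 5 and MAVS with 4 and 4 had equal counts, and WT peaks met an EV peak in 66.7% of cases, against 69.2% over protein-coding genes. By covered bases the relative ratio was 1.01. JAK1, SAMHD1 and USP18 were also called higher in K rep KO against WT, and both comparisons use the low numbers of the WT list.

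Joined by overlap, the peaks of the set formed 142 regions. Of these 81 were found in 1 list only (57.0%), 32 in 2, 14 in 3, 5 in 4 and 10 in all 5 (7.04%). Over protein-coding genes 58.1% of 87683 regions were found in 1 list and 5.85% in all 5, so recurrence in the set was near the background. The 10 regions lay at CGAS and MAVS, with 2 each, at TYK2 with 3, and at TLR9, ISG15 and BST2. Regions in every list but KD numbered 2 of 142 (1.41%), at EIF2AK2 and at TBK1, where 1.33% of all regions had this pattern. The TBK1 region, 64499389 to 64501111 of chromosome 12 near the end of the gene body, had folds of 6.45 in EV, 5.10 in K rep KO, 6.10 in K non-rep KO, against 3.68 in WT. Regions in both knockouts and in neither EV nor WT numbered 3 (2.11%), beside 2.33% of all regions.

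**Figure D5:**
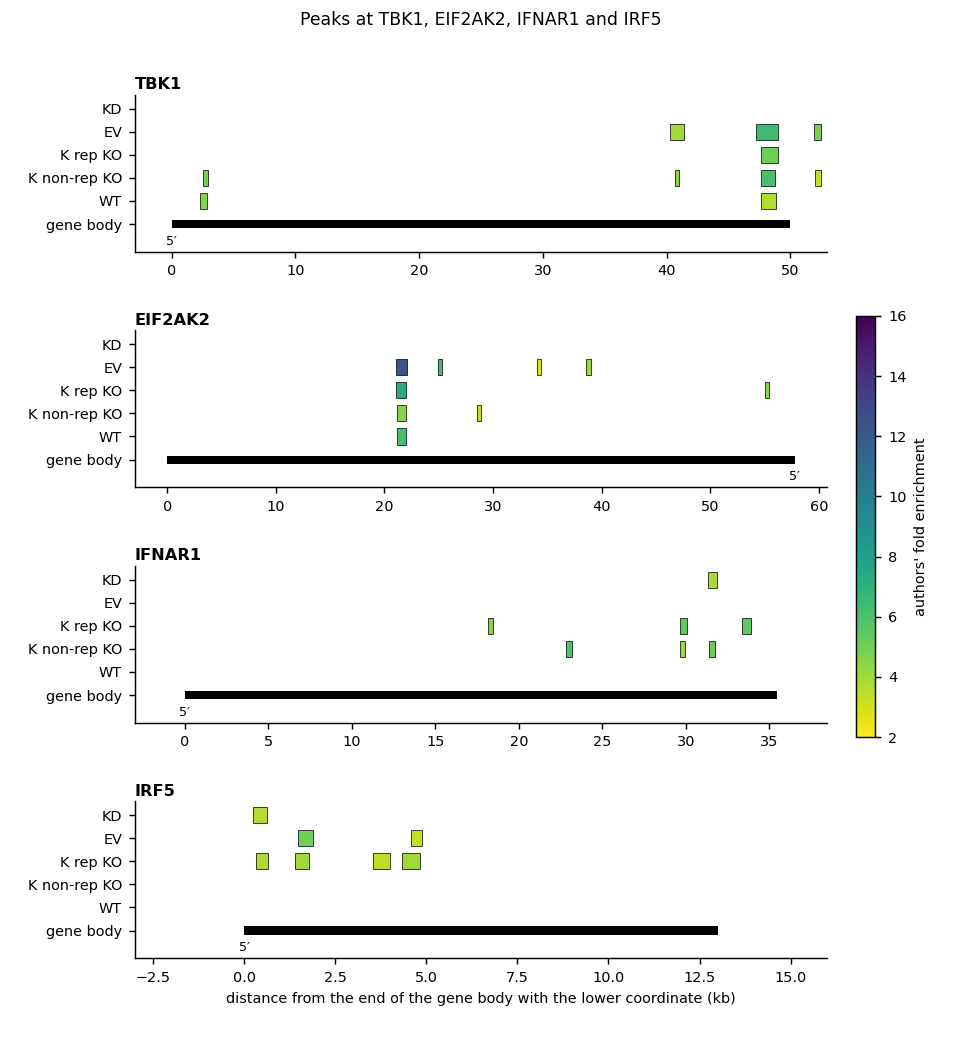
MeDIP peaks along TBK1, EIF2AK2, IFNAR1 and IRF5, drawn as distance in kb from the end of the gene body with the lower coordinate (x axis), 1 row per list, coloured by the authors' fold enrichment. TBK1 and EIF2AK2 have no peak in KD and 1 place common to the other 4 lists, IFNAR1 has 3 peaks in each knockout and IRF5 has 4 in K rep KO.

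A list of 85 other genes of the pathway was described in the same way. KD had 101 peaks there and EV 166, a relative ratio of 1.04 (0.807 to 1.35), and EV against WT gave 166 and 45, a relative ratio of 0.975 (0.698 to 1.39). In KD against EV 1 of 32 genes was called higher and 11 lower, near the 31.7% of protein-coding genes called lower. The knockouts stood at 0.892 (0.62 to 1.3) for K rep KO and 1.01 (0.699 to 1.47) for K non-rep KO against WT. Of these genes 19 had 10 or more peaks over the lists. TRAF3, a ubiquitin ligase on the way to TBK1, led with 12 in KD, 21 in EV, 11 in K rep KO, 11 in K non-rep KO, against 5 in WT. STAT3, a cytokine-activated factor, had 5, 12, 5, 7 and 5 in the same order. IKBKG, the regulatory subunit of the NF-κB kinase, was unlike them, with 5 in KD, 3 in EV, 4 in K rep KO, 11 in K non-rep KO, against 1 in WT. It has a near-identical partial copy, so its peaks are uncertain. The others, with 10 to 24 peaks each, were TICAM1, ZC3HAV1, IFNGR2, IKBKB, IL10RB, RNF135, NLRC3, APOBEC3F, PML, PARP9, RNASEH2A, JAK2, IFI35, NLRC5, TRIM5 and IRAK1.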

How the data were processed

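HEK293T cells were profiled by MeDIP-seq in 10 samples, 1 immunoprecipitated and 1 input per condition. Bowtie2, MACS2, deepTools and GRCh38 are named by the submitters' processing notes, without versions, settings or the control used in peak calling. The deposited narrowPeak files, 1 for each condition, give every peak a score, a fold enrichment (a ratio over the caller's background) and −log10 p and −log10 q values, all the authors' own. These values served to describe, rank and filter peaks within a file. Folds of several files stand side by side as the authors' values, and no change is read from them. KD was matched to the file named K-KD through the design text. Both knockout files were matched by file name, although the peak names inside carry other prefixes. A further file (1) matched no sample label and was not used.

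Only chromosomes 1 to 22 and X entered, which left out 3.56% to 5.83% of peaks. Coordinates are 1-based. Fragments at a summit and the background were solved from fold, taken as (fragments + 1)/(background + 1), and from p, taken as a Poisson probability, at a relative tolerance of 0.001, for 99.9% or more of each file. Depth relative to EV was estimated as the commonest background divided by the shortest peak. Gene counts, ratios and this solution were tested on simulated data. The simulated fold and p were made by the same formula, with backgrounds below the highest given here. That test therefore cannot show whether the authors' values follow the formula. Intervals (exact binomial or Wilson) cover counting error alone and are too narrow where adjacent peaks depend on each other. The members and all gene lists were chosen with earlier results of these data known. Genes with 3 or more peaks over the lists are given in every list, those with fewer are named with their peaks, and other pathway genes are named from 10 peaks. Python 3.11.15, numpy 2.4.6, pandas 2.3.3 and scipy 1.17.1 were used. Alternatives were stricter peaks, equal list lengths, other gene windows, summits, covered bases and members left out.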

Additional observations from a re-analysis of the deposited data

How the results depend on the processing

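The relative ratios of the 5 comparisons stayed within their main intervals under every alternative run, from 1.14 to 1.56 for KD against EV and from 0.577 to 1.01 for EV against WT. With 10 kb flanks the interval for KD against EV was 1.04 to 1.79, above 1. With the main flanks each knockout had a relative ratio of 1.37 against EV, so a value near that of KD was not particular to it. Counts of called genes moved more, and a like count can hold other genes: of the 3 genes called in KD against EV, 0 were kept at −log10 q of 5 or more, and 2 others were added. With −log10 q of 5 or more they were 2 in K rep KO against WT, 0 in K non-rep KO against WT, 1 between the knockouts and 2 in EV against WT. The 1 between the knockouts was USP18, a new call, and 0 of the 2 main calls there were kept. With lists of equal length they were 3, 0, 2 and 1 in that order. With 10 kb flanks they were 8 in KD against EV, 9 in K non-rep KO against WT, 5 between the knockouts and 13 in EV against WT. EV against WT had 3 with folds of 4 or more and 3 within gene bodies alone. With −log10 q of 5 or more the genes with a peak were 13 in KD, 15 in EV and 10 in K non-rep KO, against 9 in WT, and 3 regions were found in all lists. Stricter filters leave fewer peaks and wider windows more. Of 300 values for single genes 295 stayed within their counting interval. These intervals are wide at such small counts and the alternatives reuse the same peaks, so staying inside says little about stability. The log2 ratio of JAK1 in K non-rep KO against WT was −1.0 with −log10 q of 5 or more and −1.0 with folds of 4 or more. That of SAMHD1 in EV against WT was −1.58 with lists of equal length, on 0 peaks against 2. Without the WT list 11 regions were found in the 4 others, a setting chosen after seeing the data. No paired analysis was possible because each condition has 1 list and the labels give no replicate numbers.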
